A study of Mus musculus with 6 samples.

Results

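The 7 genes described here, Cntnap1, Agap2, Cgref1, Enc1, Tacc2, Nt5dc2 and Gm15441, were chosen by name out of the 23412 genes of a liver count table because all of them were clearly higher after liraglutide than after phosphate-buffered saline (PBS). Liraglutide mimics the gut hormone GLP-1 at its receptor, and is used against diabetes and obesity. Bulk RNA sequencing was done on livers of C57BL/6J mice labelled as 8 weeks old, all of them after 4 weeks on a high-fat diet. Group HFD_Lira3d (3 libraries) received liraglutide at 300 µg/kg under the skin over 3 days, and group HFD_PBS3d (3 libraries) received PBS. The comparison asks which liver transcripts differ after short liraglutide treatment on this diet. The sex of the mice and whether each library came from its own animal are not given in the labels, so the spread that p-values rest on may be technical. Since these 6 libraries chose the members, the members' own differences are a description without a test. Relatives, partners, neighbours, regulator targets and marker genes were put through the same test. The gene lists among these were chosen with earlier results of these data known.

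The members come from unrelated families, and most are best known outside the liver. Cntnap1 codes for a membrane protein of axons that, together with contactin 1, holds myelin loops beside the node of Ranvier. Agap2 codes for a protein of the brain that makes small Arf proteins hydrolyse GTP and binds the kinase Akt. Cgref1 codes for a secreted protein with calcium-binding EF hands that slows the growth of cultured cells, Enc1 for an actin-binding Kelch protein first described in the nervous system, Tacc2 for a coiled-coil protein of centrosomes and microtubules, and Nt5dc2 for a member of a nucleotidase-like family whose enzyme activity is poorly known. Gm15441 is a long noncoding RNA transcribed from the strand opposite Txnip, and it is known in mouse liver to rise with fasting and with activation of the nuclear receptor PPAR-alpha.

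Total counts lay between 20888991 and 25404192 in the liraglutide libraries and between 21901811 and 27007182 in the PBS libraries. Libraries are named by group and by the number in their column of the table. Levels are given in CPM, the counts of a gene per 1000000 counts of a library after scaling by TMM factors. The summed level of 6 hepatocyte markers, Alb among them, was 66380 to 85690 CPM after liraglutide and 76260 to 97240 CPM after PBS. In edgeR's quasi-likelihood test, 515 of 12626 tested genes were higher after liraglutide at an adjusted p below 0.05 (4.08%) and 592 were lower (4.69%), 8.77% in either direction. All 7 members passed the filter on low counts and were among the 515, and the CPM of their groups did not overlap, as was so in the higher direction for 14.9% of tested genes. Both facts follow from how the members were chosen. In bulk tissue, more RNA per cell and more cells of a type cannot be told apart.

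Cntnap1 (chromosome 11, 101170523 to 101190724, GRCm38, plus strand) had 89.0, 122 and 40.4 CPM in libraries Lira161, Lira162 and Lira164, against 6.82, 10.4 and 5.57 CPM in libraries PBS155, PBS157 and PBS158. Its lowest liraglutide library was thus 3.90 times its highest PBS library, and its log2 fold change was 3.46 ± 0.50 (SE), or 11.04-fold. Of its exon bases, 233 (3.97%) overlap Plekhh3 on the opposite strand. Plekhh3 was at 9.24 ± 0.85 CPM after liraglutide and 8.51 ± 1.05 CPM after PBS (SD, n = 3 each), with groups that overlapped (edgeR adjusted p = 0.652).

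Agap2 (chromosome 10, 127075284 to 127093169, plus strand) was the scarcest member after PBS. It had 27.4, 30.8 and 7.96 CPM in libraries Lira161, Lira162 and Lira164, against 2.16, 3.17 and 1.20 CPM in PBS155, PBS157 and PBS158. The PBS values rest on 59, 74 and 25 counts. Library Lira164 was the low one, 3.87 times below Lira162, and yet 2.51 times above the highest PBS library. The log2 fold change was 3.33 ± 0.64 (10.03-fold).

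Cgref1 (chromosome 5, 30933143 to 30945591, minus strand) showed the same order of libraries under liraglutide, at 33.6 CPM in Lira161, 49.6 in Lira162 and 16.7 in Lira164, with 3.26, 3.47 and 1.54 CPM in PBS155, PBS157 and PBS158. Its log2 fold change of 3.58 ± 0.51 (11.9-fold) was the 7th largest among tested genes, and those of Gm15441, Cntnap1 and Agap2 ranked 8th, 10th and 12th.

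Enc1 (chromosome 13, 97241105 to 97253034, plus strand) was more even within groups. Liraglutide libraries Lira161, Lira162 and Lira164 had 32.8, 42.4 and 28.1 CPM, against 9.64, 9.63 and 8.35 CPM in PBS155, PBS157 and PBS158, a log2 fold change of 1.90 ± 0.16 (3.74-fold).

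Tacc2 (chromosome 7, 130577438 to 130764785, plus strand) had 57.1, 57.6 and 39.2 CPM in Lira161, Lira162 and Lira164, against 17.4, 16.8 and 14.9 CPM in PBS155, PBS157 and PBS158 (log2 fold change 1.65 ± 0.16, 3.13-fold). It is the longest member, with 18 annotated transcripts over 187348 bp. The counts are per gene and do not say which of these transcripts was measured. The gene Fgfr2 overlaps its body on the other strand without sharing exon bases, and was at 30.9 ± 5.13 CPM after liraglutide and 30.9 ± 3.58 CPM after PBS.

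Nt5dc2 (chromosome 14, 31131053 to 31139124, plus strand) had the smallest difference of the 7 and the narrowest spread after liraglutide. It had 17.3, 17.0 and 14.5 CPM in Lira161, Lira162 and Lira164, and 6.85, 6.64 and 5.52 CPM in PBS155, PBS157 and PBS158 (log2 fold change 1.36 ± 0.14, 2.56-fold). Its 112 exon bases in common with Stab1, a scavenger receptor gene of sinusoidal endothelium on the opposite strand, are 4.71% of its exons. Stab1 rose as well, at 42.7 ± 6.43 CPM after liraglutide and 28.5 ± 3.45 CPM after PBS (log2 fold change 0.59 ± 0.14, edgeR adjusted p = 0.0290). That call was lost without Lira162, Lira164, PBS157 or PBS158, at adjusted p between 0.0504 and 0.108. The part of shared bases in the Nt5dc2 counts was not tested.

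**Figure D1:**
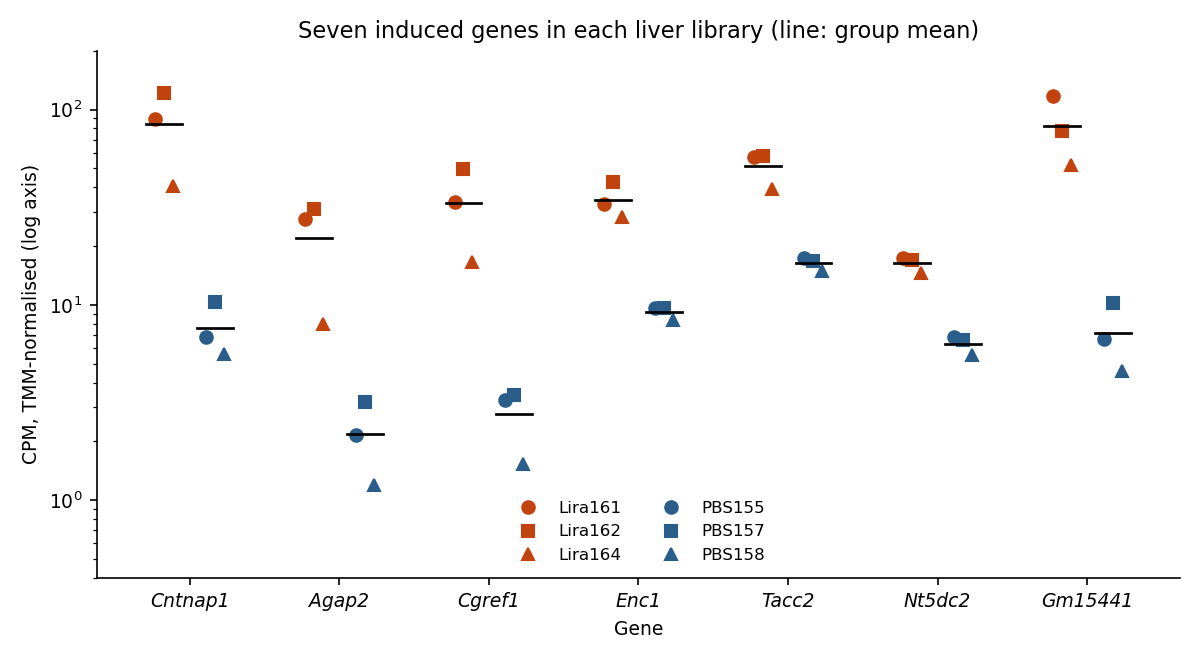
Level of each member in CPM (TMM-normalised, log axis) in the 3 liraglutide libraries (orange, left) and the 3 PBS libraries (blue, right), with 1 symbol per library and a line at the group mean. All liraglutide points lie above all PBS points for each gene, the Lira164 triangle is the lowest liraglutide point throughout, and the liraglutide points of Nt5dc2 lie closest together.

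Gm15441 (chromosome 3, 96555765 to 96566801, minus strand) had 118, 77.9 and 52.2 CPM in Lira161, Lira162 and Lira164, against 6.71, 10.2 and 4.61 CPM in PBS155, PBS157 and PBS158, a log2 fold change of 3.52 ± 0.42 (11.5-fold). Its exons cover 1676 bp, and 606 of these (36.2%) are also exon bases of Txnip on the plus strand. Txnip codes for a protein that binds thioredoxin and limits glucose uptake. Whether reads were counted by strand is not stated, so reads from the shared bases cannot be assigned to either gene. One shared stretch is exon 2 of transcript Gm15441-202, 165 bases that lie wholly within the fifth coding exon of Txnip transcript Txnip-201 (96559589 to 96559845). It is printed because a read from it matches both genes. It was read from GENCODE M21 (GRCm38) in the direction of Gm15441, minus strand, chr3:96559678-96559842, 5′ to 3′, with no part in capitals, and its reverse complement was found in Txnip-201.
Gm15441 exon 2: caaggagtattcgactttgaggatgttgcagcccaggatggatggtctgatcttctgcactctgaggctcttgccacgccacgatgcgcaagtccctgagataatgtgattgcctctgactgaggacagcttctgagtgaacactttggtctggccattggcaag

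Txnip rose less than its antisense partner and in another order of libraries. It was at 255 CPM in Lira161, 351 in Lira162 and 358 in Lira164, against 95.7, 131 and 120 CPM in PBS155, PBS157 and PBS158 (log2 fold change 1.48 ± 0.17, edgeR adjusted p = 0.00351, past the threshold in every alternative fit). Per 100 counts of Txnip there were 46.3, 22.2 and 14.6 counts of Gm15441 in Lira161, Lira162 and Lira164, and 7.01, 7.76 and 3.85 in PBS155, PBS157 and PBS158. The ratio was therefore higher in each liraglutide library than in each PBS library. Within the liraglutide group the library richest in Gm15441, Lira161, was the poorest in Txnip. The counts of the 2 genes were thus not in a fixed ratio across these libraries.

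**Figure D2:**
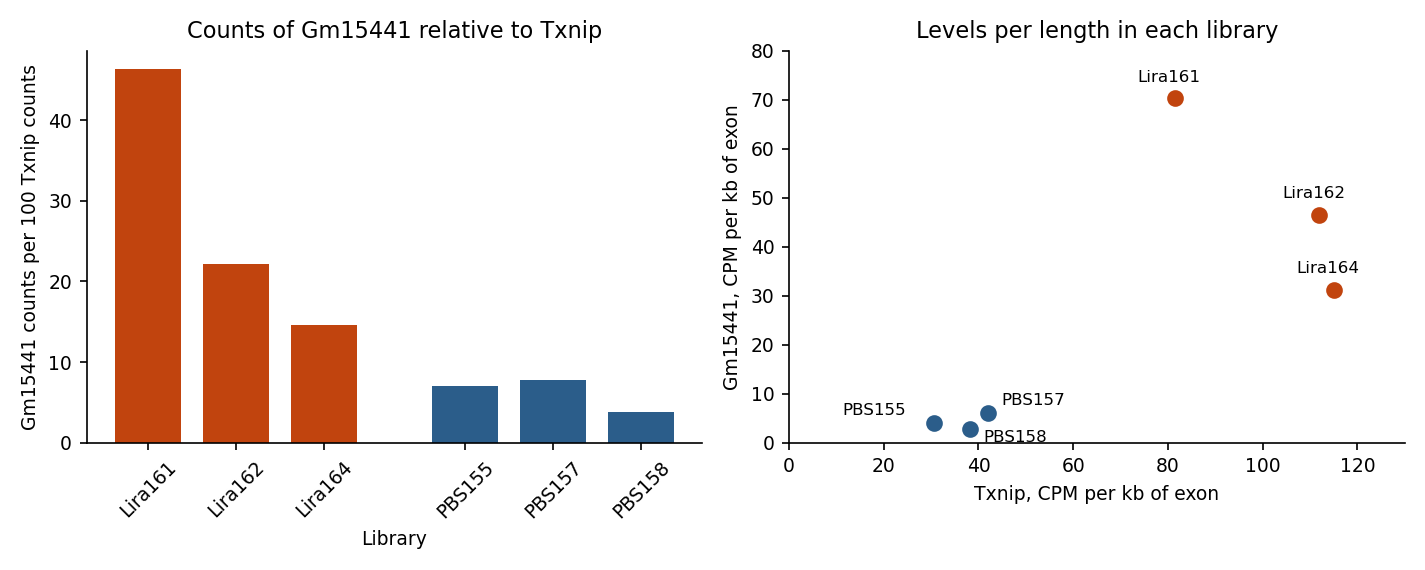
Left, Gm15441 counts per 100 Txnip counts in each library (bars start at 0; orange liraglutide, blue PBS). Right, CPM per kb of exon of Gm15441 against that of Txnip, 1 point per library; Lira161 has 70.3 for Gm15441 and 81.5 for Txnip, while Lira164 has 31.2 and 115.

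Per exon length, the members spanned the middle to upper range of liver transcripts after liraglutide and mostly the lower range after PBS. Among 11878 tested genes with an annotated exon length, the level of Gm15441 stood at percentile 93.1 after liraglutide and percentile 55.0 after PBS. Cgref1 stood at percentile 82.4 after liraglutide and 29.3 after PBS, and Cntnap1 at 80.7 and 28.8. Enc1 and Nt5dc2 stood at 67.4 and 66.0 after liraglutide and at 36.6 and 43.5 after PBS. Agap2 was at percentile 51.4 after liraglutide and 12.5 after PBS, and Tacc2 at 48.5 and 25.6.

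The order of levels per kb of exon differed between the groups. After liraglutide it was Gm15441 at 49.3 ± 19.7 CPM per kb (SD, n = 3), Cgref1 at 16.0 ± 7.91, Cntnap1 at 14.3 ± 7.002, Enc1 at 7.27 ± 1.54, Nt5dc2 at 6.85 ± 0.64, Agap2 at 3.71 ± 2.08 and Tacc2 at 3.33 ± 0.68. In that order the ranges of mean ± SD were separate between Gm15441 and Cgref1 and between Nt5dc2 and Agap2, and overlapped between the other neighbours. After PBS it was Gm15441 at 4.28 ± 1.68 CPM per kb, Nt5dc2 at 2.67 ± 0.30, Enc1 at 1.94 ± 0.16, Cgref1 at 1.32 ± 0.51, Cntnap1 at 1.29 ± 0.42, Tacc2 at 1.06 ± 0.085 and Agap2 at 0.366 ± 0.166. There the separate neighbours were Nt5dc2 and Enc1, and Tacc2 and Agap2. With the longest transcript as the length, Tacc2 was at 5.68 CPM per kb after liraglutide and 1.81 after PBS, above Agap2 and, after PBS, above Cntnap1 at 1.39. Nt5dc2 then stood at 8.76 CPM per kb after liraglutide, above Enc1 at 7.27.

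The members fell into a pair of patterns in the 6 libraries. Cntnap1, Agap2, Cgref1 and Gm15441 differed about 10- to 12-fold and varied widely within groups. Their coefficients of variation were 40.0% to 55.9% after liraglutide and 32.8% to 45.2% after PBS. Enc1, Tacc2 and Nt5dc2 differed less than 4-fold, with coefficients of 9.32% to 21.2% after liraglutide and 8.00% to 11.3% after PBS. For comparison, the median coefficient over all tested genes was 11.3% after liraglutide and 11.4% after PBS, and over the 180 genes called higher with a log2 fold change of at least 1 it was 24.0% in both groups. The members with the larger fold changes thus had the wider spread, and the SE of the log2 fold change was 0.42 to 0.64 for them and 0.14 to 0.16 for the other 3.

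**Figure D3:**
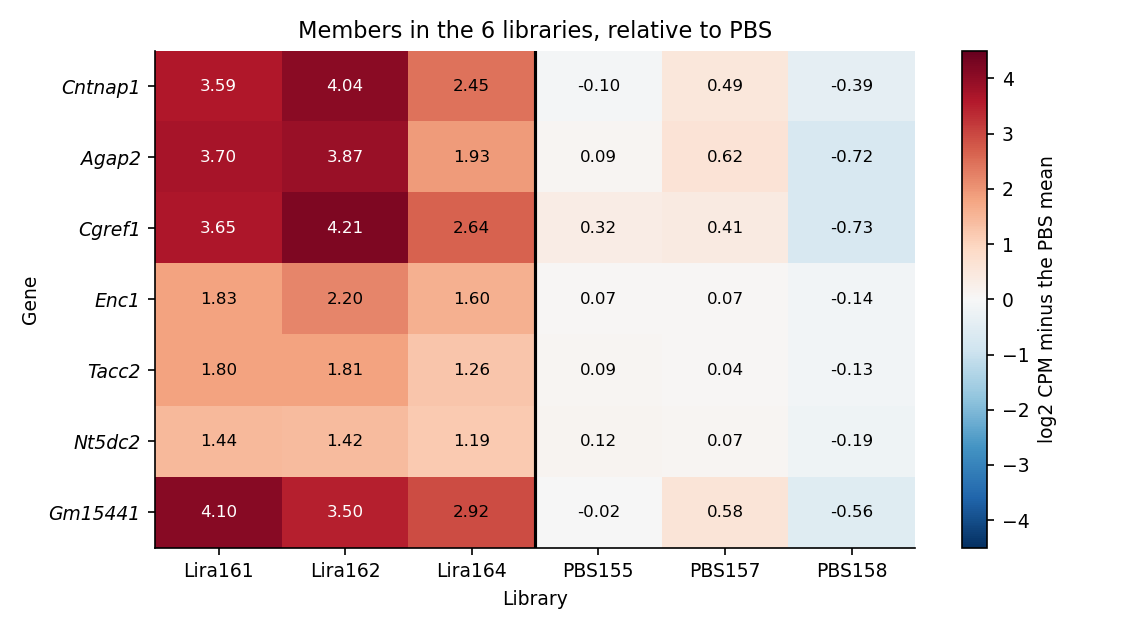
Log2 CPM of each member in each library minus the mean of the PBS libraries, liraglutide libraries left of the line and PBS libraries right of it. Cntnap1, Agap2, Cgref1 and Gm15441 reach 3.50 or more in Lira161 and Lira162 and 1.93 to 2.92 in Lira164, while Enc1, Tacc2 and Nt5dc2 lie between 1.19 and 2.20 in all liraglutide libraries.

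The same libraries were low for all members. Lira164 was the lowest liraglutide library for 7 of 7, as it was for 67.8% of the 515 genes called higher and 37.2% of all tested genes. PBS158 was the lowest PBS library for 7 of 7, against 44.3% of the genes called higher and 34.5% of all tested genes. Lira162 was the highest for Cntnap1, Agap2, Cgref1, Enc1 and Tacc2, and Lira161 for Nt5dc2 and Gm15441. The fit was repeated with each library left out in turn (6 leave-outs). The calls among these leave-outs are a description of libraries that also chose the members, and grade none of them. Over the 6 leave-outs, the log2 fold change lay between 3.08 and 3.79 for Cntnap1, 3.00 and 3.72 for Agap2, 3.16 and 3.89 for Cgref1 and 3.18 and 3.86 for Gm15441. For Enc1 it lay between 1.72 and 2.02, for Tacc2 between 1.55 and 1.80 and for Nt5dc2 between 1.27 and 1.42. The adjusted p of these 3 was below 0.05 in each of the 6 leave-outs, and that of Agap2 only in the one without Lira164. Cntnap1 missed it without Lira161, PBS155 or PBS158, Cgref1 without PBS155, PBS157 or PBS158, and Gm15441 without PBS155. Leaving out PBS155 took away the most, with 3 of 7 members past the threshold, and leaving out Lira164 took away none.

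**Figure D4:**
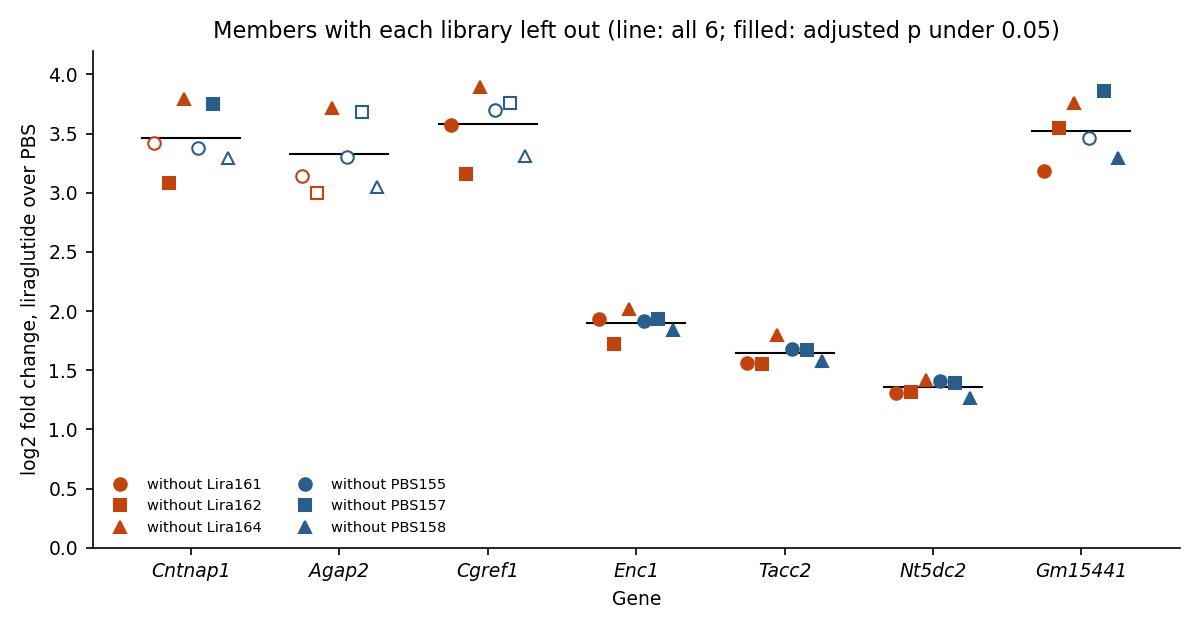
Log2 fold change of liraglutide over PBS for each member with each library left out in turn (symbols; orange for a liraglutide and blue for a PBS library left out) and with all 6 libraries (line). Filled symbols have an edgeR adjusted p below 0.05; open ones, which do not, occur for Cntnap1, Agap2, Cgref1 and Gm15441.

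Profiles were compared by the root mean square difference over the 6 libraries, on the log2 CPM scale with each gene's PBS mean set to 0. The size of the fold change enters this distance. Among genes with a mean of at least 5 CPM that are not members, Cntnap1 was closest to Apoa4, an apolipoprotein gene (0.283), then to Fgf21, a liver hormone of fasting (0.311), and Gdf15, a stress hormone (0.434). Apoa4 (0.296), Fgf21 (0.442) and Igfbp1 (0.490), which codes for a binding protein of insulin-like growth factors, were closest to Agap2. For Cgref1 they were Fgf21 (0.462), Apoa4 (0.477) and Gdf15 (0.602), and for Gm15441 Fgf21 (0.432), Apoa4 (0.562) and Rad51b (0.619), a DNA repair gene.

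The 3 members with smaller differences had other genes close to them. Enc1 lay nearest to Acacb, an acetyl-CoA carboxylase gene (0.189), Gja4, a gap junction gene (0.196), and Mfsd2a, a lysolipid transporter gene (0.234). Tacc2 lay nearest to Acacb (0.196), Kctd17 (0.200) and Tmem86a (0.204). Nt5dc2 was closest to Mycl1, a Myc family gene (0.113), Vcam1, an adhesion molecule gene (0.135), and St5 (0.161). These distances describe 6 libraries and were not tested.

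Txnip and a pair of nucleotidase genes rose among the genes listed as relatives of the members. Of 38 listed relatives, 32 were tested, of which Txnip, Nt5e and Nt5c2 rose, Arrdc3 fell and 28 did not pass the test, with a median log2 fold change of -0.03 against 0.01 over all tested genes. The share called was 12.5%, against 8.77% of all tested genes, and at an unadjusted p under 0.05 there were 5 higher and 5 lower. Counts of Cntnap2, Cntnap4, Cntnap5a and Cntnap5c were 0 in all libraries, which allows up to 3 counts, or 0.110 to 0.145 CPM, in a library. Cntnap3 and Cntnap5b had at most 1 count in any library. Cntnap1 was thus the one member of its family above this limit in these livers. Neither relative of Agap2 passed the test: Agap1 was at 11.9 ± 0.72 CPM after liraglutide and 13.6 ± 0.92 CPM after PBS (log2 fold change -0.19 ± 0.12), and Agap3 at 31.9 ± 2.85 and 31.4 ± 1.61 CPM (0.02 ± 0.10).

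In edgeR none of the 14 tested Kelch relatives of Enc1 passed the test, with log2 fold changes between -0.43 and 0.30. At an unadjusted p under 0.05 there were 2 higher and 4 lower, and DESeq2 called 0. Among them Klhl25, the closest one, was at 15.8 ± 2.46 CPM after liraglutide and 20.1 ± 1.52 CPM after PBS (-0.35 ± 0.13, edgeR adjusted p = 0.142), and Keap1, the Kelch adaptor that holds NRF2 in check, at 75.3 ± 3.75 and 63.3 ± 4.66 CPM (0.25 ± 0.09). Tacc1 was at 39.8 ± 4.16 CPM after liraglutide and 38.4 ± 4.13 CPM after PBS (0.05 ± 0.12), and Tacc3 at 1.41 ± 0.10 and 1.24 ± 0.22 CPM (0.19 ± 0.27). Mcfd2, an EF-hand gene listed beside Cgref1, was at 217.8 ± 12.0 CPM after liraglutide and 217.7 ± 29.7 CPM after PBS.

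The 8 genes listed beside Nt5dc2 share a nucleotidase name, which need not mean a common family, and a pair of them rose. Nt5e, the cell-surface enzyme that makes adenosine from AMP, was at 9.79, 15.1 and 10.2 CPM in Lira161, Lira162 and Lira164, against 6.78, 5.22 and 6.38 CPM in PBS155, PBS157 and PBS158 (0.94 ± 0.20, edgeR adjusted p = 0.0207). Nt5c2, a cytosolic enzyme that splits IMP and GMP, was at 25.9 ± 5.89 CPM after liraglutide and 16.2 ± 1.61 CPM after PBS (0.68 ± 0.16, adjusted p = 0.0348). The groups did not overlap for either. Without Lira162, PBS157 or PBS158 the call of Nt5e was lost (adjusted p 0.0643 to 0.0749), and that of Nt5c2 held only without Lira164 (otherwise 0.0532 to 0.112). The nearest relatives did not pass: Nt5dc1 was at 26.2 ± 4.21 CPM after liraglutide and 25.5 ± 2.01 CPM after PBS (0.04 ± 0.13), and Nt5dc3 at 21.5 ± 0.99 and 23.3 ± 2.89 CPM (-0.12 ± 0.11).

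Arrdc3, an alpha-arrestin gene of the family of Txnip, went the other way from Txnip. It was at 66.7, 78.6 and 117 CPM in Lira161, Lira162 and Lira164, against 239, 146 and 282 CPM in PBS155, PBS157 and PBS158 (-1.34 ± 0.30, edgeR adjusted p = 0.0437). This call was lost when library totals set the scale (0.0504), without the low-count filter (0.110) and without Lira161, Lira162, PBS155 or PBS158 (0.112 to 0.172). Arrdc1, Arrdc2 and Arrdc4 did not pass, at log2 fold changes of 0.42, -0.17 and -0.04.

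**Figure D5:**
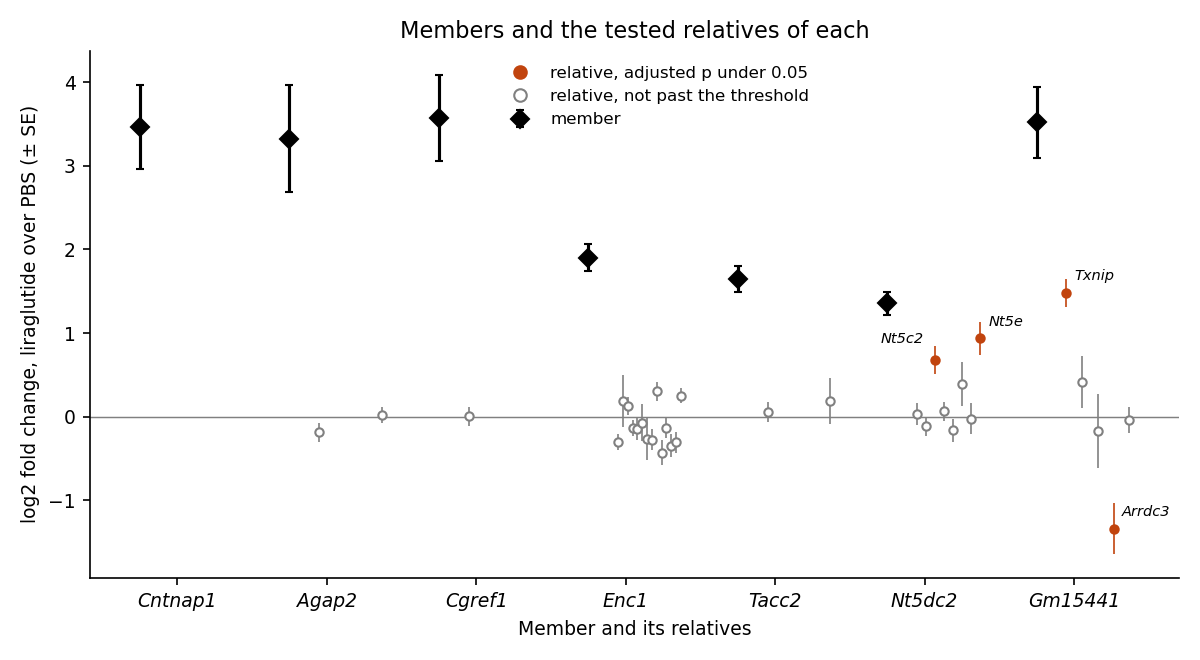
Log2 fold change of liraglutide over PBS (± SE) for each member (black diamonds) and for the tested relatives listed beside it (circles, filled at an edgeR adjusted p below 0.05). Most relatives lie between -0.43 and 0.42, Txnip, Nt5e and Nt5c2 lie higher and Arrdc3 lower; no relative of Cntnap1 had enough counts to be tested.

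Genes whose products are known to act with the members were counted in the same way. Of 31 tested partners none rose in edgeR, 1 fell and 30 did not pass the test (median log2 fold change 0.14), a called share of 3.23% against 8.77% of all tested genes. At an unadjusted p under 0.05 there were 5 higher and 3 lower, and DESeq2 called 0 higher and 1 lower. The one that fell was Ank3, an ankyrin of axon membranes listed beside Cntnap1, at 16.6 ± 3.08 CPM after liraglutide and 27.2 ± 5.15 CPM after PBS (-0.71 ± 0.17, edgeR adjusted p = 0.0395). Scaling by library totals ended this call (0.0667), and so did leaving out Lira161, Lira164, PBS155 or PBS158 (0.0692 to 0.124). Cntn1, the contactin that Cntnap1 binds in axons, had 0 counts in all libraries, and so had Th, the tyrosine hydroxylase gene whose product Nt5dc2 is reported to bind. Cul3, the ubiquitin ligase scaffold that Kelch adaptors use, was at 68.7 ± 3.55 CPM after liraglutide and 71.6 ± 0.39 CPM after PBS, and Nfe2l2, the gene of NRF2, at 62.3 ± 12.7 and 76.9 ± 7.80 CPM (-0.30 ± 0.15, adjusted p = 0.230).

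Defining markers of nerve, the tissue in which several members are best known, were at 0 in these livers. Of 8 Schwann cell markers, Sox10 and S100b had 0 counts in all libraries, the summed level was 7.84 to 11.4 CPM after liraglutide and 8.78 to 11.9 CPM after PBS, and none of the 4 tested was called by edgeR or DESeq2, or had an unadjusted p under 0.05. Of 9 neuron markers, Snap25, Tubb3, Nefl and Elavl4 had 0 counts in all libraries. Their summed level of 14.5 to 22.9 CPM after liraglutide and 18.4 to 21.7 CPM after PBS came mostly from Syt1, at 16.6 ± 4.43 and 18.6 ± 1.75 CPM. The 8 markers of dividing cells summed to 3.13 to 4.42 CPM after liraglutide and 3.26 to 7.02 CPM after PBS, with none of 5 tested called by edgeR or DESeq2 and 1 lower at an unadjusted p under 0.05.

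Of the 50 markers tested over all cell types, 2 rose and 1 fell, a called share of 6.00% against 8.77% of all tested genes. DESeq2 called 3 higher and 2 lower, and at an unadjusted p under 0.05 there were 6 higher and 4 lower. Clec4g, a gene of sinusoidal endothelium, rose to 51.3 ± 8.19 CPM after liraglutide, against 29.8 ± 6.32 CPM after PBS (0.78 ± 0.17, edgeR adjusted p = 0.0250). The 6 endothelial markers summed to 161.2, 200.2 and 255.2 CPM in Lira161, Lira162 and Lira164, against 180.7, 107.2 and 94.6 CPM in PBS155, PBS157 and PBS158. Their log2 fold changes were 0.51 to 0.78, and the groups' sums overlapped through PBS155 alone. PBS155 also stood above the other PBS libraries in macrophage markers, whose 6 genes summed to 190.9, 124.8 and 199.5 CPM in Lira161, Lira162 and Lira164, against 204.6, 95.7 and 59.1 CPM in PBS155, PBS157 and PBS158, and none of the 6 was called by edgeR or DESeq2 or had an unadjusted p under 0.05. Leaving out PBS155 was also the leave-out with the fewest members past the threshold. For the members that missed it then, Cntnap1, Agap2, Cgref1 and Gm15441, the CPM of PBS155 lay between those of PBS157 and PBS158. A link between the marker sums and these calls was not tested. Hnf4a, a hepatocyte transcription factor, rose by 0.53 ± 0.13 (adjusted p = 0.0338), and the biliary marker Spp1 fell by 0.82 ± 0.11 (adjusted p = 0.00508). The calls of Clec4g and Hnf4a were each lost in 4 of the 6 leave-outs, and that of Spp1 in none. Cholangiocyte markers summed to 26.6 to 28.6 CPM after liraglutide and 42.0 to 50.9 CPM after PBS. These sums came mostly from Spp1, at 20.48 ± 1.17 CPM after liraglutide and 36.25 ± 4.01 CPM after PBS. The other 4 tested cholangiocyte markers were not called by edgeR. Log2 fold changes of the 5 tested lay between -0.82 and -0.33, and 2 were lower at an unadjusted p under 0.05. T and natural killer cell markers were scarce, at 2.36 to 2.78 CPM after liraglutide and 0.912 to 1.28 CPM after PBS, and none of the 3 tested was called by edgeR or DESeq2, with 2 higher at an unadjusted p under 0.05. The part of these cell types in the members' values was not tested.

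Targets of the regulators that background links to some members were counted in the same fit. The target lists were chosen with earlier results of these data known, so their counts are a description. For PPAR-alpha, linked to Gm15441, 16 of 30 tested targets rose in edgeR and none fell, with a median log2 fold change of 0.53. Among all tested genes, 4.08% rose and 4.69% fell. At an unadjusted p under 0.05 there were 23 higher and 0 lower, and DESeq2 called 20 higher and 0 lower. Pex11a, a peroxisome gene, rose to 136 ± 7.89 CPM after liraglutide, against 68.0 ± 5.82 CPM after PBS (1.00 ± 0.10, edgeR adjusted p = 0.00273), and Fgf21 to 48.8 ± 14.5 CPM, against 5.68 ± 1.25 CPM after PBS (3.10 ± 0.27, adjusted p = 0.00309). Acot1, an acyl-CoA thioesterase gene, rose by 1.54 ± 0.18 and Aldh3a2, a fatty aldehyde dehydrogenase gene, by 0.94 ± 0.13. The count of 16 was 7, 8, 8 and 9 without Lira162, Lira161, PBS155 and PBS158.

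Of 23 tested targets of p53, to which Enc1 and Cgref1 are known to respond in cultured cells, 1 rose in edgeR, none fell and 22 did not pass (median 0.08). The share that rose, 4.35%, was near the 4.08% of all tested genes. At an unadjusted p under 0.05 there were 4 higher and 2 lower, and DESeq2 called 2 higher and 1 lower. Gdf15 was the one that rose, at 18.7 ± 8.44 CPM after liraglutide and 2.20 ± 0.24 CPM after PBS (3.09 ± 0.39, edgeR adjusted p = 0.00757). Among 18 tested targets of NRF2, whose protein Enc1 is reported to lower, 1 rose and 1 fell (median 0.13), a called share of 11.1% against 8.77% of all tested genes. DESeq2 called 3 higher and 2 lower, and at an unadjusted p under 0.05 there were 7 higher and 4 lower. Me1, the malic enzyme gene, was at 173 ± 7.51 CPM after liraglutide and 118 ± 7.95 CPM after PBS (0.55 ± 0.10, adjusted p = 0.0110). Gstm3, a glutathione transferase gene with close paralogs that could share its reads, was at 1.47 ± 0.41 and 4.30 ± 2.06 CPM (-1.55 ± 0.39, adjusted p = 0.0424). Without any 1 library other than PBS157 the call of Gstm3 was lost (adjusted p 0.0770 to 0.123).

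The nearest genes on the chromosome were read from the same fit. Of the 14 nearest tested genes on either side that do not overlap a member, 1 rose, 1 fell and 12 did not pass, with a median log2 fold change of 0.08. The called share was 14.3%, against 8.77% of all tested genes. Both that changed flank Cgref1. Khk, the ketohexokinase gene that starts fructose use, lies 1895 bp downstream on the other strand and was at 183 ± 15.3 CPM after liraglutide and 287 ± 53.5 CPM after PBS (-0.65 ± 0.14, edgeR adjusted p = 0.0244). Abhd1, a hydrolase-like gene 4475 bp upstream, was at 7.45 ± 1.56 CPM after liraglutide and 4.21 ± 0.79 CPM after PBS (0.83 ± 0.22, adjusted p = 0.0462). Cgref1 thus rose between a neighbour that fell and one that rose far less. Khk was not called without Lira161, Lira162 or PBS158 (0.0661 to 0.101), and of the 6 leave-outs the one without Lira164 alone kept the call of Abhd1 (otherwise 0.0847 to 0.179).

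The remaining neighbours did not pass the test. Tspan31, 5020 bp upstream of Agap2, was at 554 ± 139 CPM after liraglutide and 337 ± 50.4 CPM after PBS (0.72 ± 0.19, edgeR adjusted p = 0.0557), with groups that did not overlap. It passed with DESeq2 (adjusted p = 0.00245), with library totals as the scale (0.0406), without the low-count filter (0.0365) and without Lira164 (0.00509). Os9, 2481 bp downstream, was at 330.4 ± 34.1 CPM after liraglutide and 279.7 ± 14.1 CPM after PBS (0.24 ± 0.11). Ezh1 lies 391 bp from the end of Cntnap1 and was at 22.7 ± 2.00 CPM after liraglutide and 19.8 ± 0.59 CPM after PBS (0.20 ± 0.10, adjusted p = 0.268), and Tubg1, on its other side, differed by 0.01 ± 0.10. Log2 fold changes of the other neighbours lay between -0.18 (Hfe2, beside Gm15441) and 0.17 (Polr3gl, on its other side), with Utp15 (-0.02) beside Enc1, 993811 bp away, Nsmce4a (-0.15) and Plekha1 (0.13) beside Tacc2, and Smim4 (0.16) and Nisch (-0.17) beside Nt5dc2.

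Promoter sequences of RefSeq (GRCm38.p6, 250 bases before to 50 after a start site) were given for 4 of the 7 members, Agap2, Cgref1, Tacc2 and Nt5dc2, with 7 start sites in all. They are printed to show the base composition and the motif matches of the windows. For each gene the window of the first of these start sites in the direction of transcription follows, 5′ to 3′ on the gene's strand. That of Agap2 lies inside the span of the gene in GENCODE M21, which begins at 127075284. Capitals mark matches, on either strand, to GGGCGG, known as the GC box, to CCAAT, which promoter factor NF-Y can bind, and to CACGTG, known as an E-box.
Agap2, chr10:127078657-127078956, plus strand: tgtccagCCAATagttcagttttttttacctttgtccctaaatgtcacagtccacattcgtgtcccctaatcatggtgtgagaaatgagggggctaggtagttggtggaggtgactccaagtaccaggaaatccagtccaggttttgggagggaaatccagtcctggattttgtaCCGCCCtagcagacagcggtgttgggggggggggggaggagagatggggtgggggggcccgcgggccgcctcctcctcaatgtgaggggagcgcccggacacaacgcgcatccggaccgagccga
Cgref1, chr5:30945431-30945730, minus strand: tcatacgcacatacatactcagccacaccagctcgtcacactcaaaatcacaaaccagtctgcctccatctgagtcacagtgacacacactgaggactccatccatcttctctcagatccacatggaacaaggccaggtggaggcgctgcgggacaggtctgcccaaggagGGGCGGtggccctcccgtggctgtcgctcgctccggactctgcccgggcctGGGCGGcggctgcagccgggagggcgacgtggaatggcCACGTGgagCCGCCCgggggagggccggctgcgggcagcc
Tacc2, chr7:130577188-130577487, plus strand: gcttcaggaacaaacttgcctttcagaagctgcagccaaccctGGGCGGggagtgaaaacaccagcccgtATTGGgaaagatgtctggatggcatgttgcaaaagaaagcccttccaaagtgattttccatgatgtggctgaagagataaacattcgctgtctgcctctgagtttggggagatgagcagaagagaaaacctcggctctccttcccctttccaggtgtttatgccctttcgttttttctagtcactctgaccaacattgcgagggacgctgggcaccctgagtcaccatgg
Nt5dc2, chr14:31130839-31131138, plus strand: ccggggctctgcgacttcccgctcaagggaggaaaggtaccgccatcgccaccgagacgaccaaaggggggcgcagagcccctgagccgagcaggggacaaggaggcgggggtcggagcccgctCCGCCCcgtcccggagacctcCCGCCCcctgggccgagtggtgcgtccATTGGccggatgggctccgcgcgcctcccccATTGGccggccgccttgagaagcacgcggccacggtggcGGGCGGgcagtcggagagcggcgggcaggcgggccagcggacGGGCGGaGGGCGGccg

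The windows differed in base composition. That of Nt5dc2 held 76.3% G and C and 38 CpG pairs, that of Cgref1 65.3% and 20, that of Agap2 58.0% and 13 and that of Tacc2 50.7% and 7, where the median of 32851 promoter windows in the table was 52.7% and 7. GGGCGG was matched in 6 of the 7 windows of the members and in 35.7% of all windows, and CCAAT in 4 of 7 and 37.4%. CACGTG was matched in both windows of Cgref1 and in 7.15% of all windows. The windows of Cgref1 overlap each other and hold the same copies of CACGTG and of GGGCGG, so these copies were counted in both. No match was found in the 7 windows for AGGTCA (16.3% of all windows), GTAAACA (3.65%), TGACGTCA (1.79%), TGACNNNGC (12.4%), TTCNNNGAA (8.30%), TCACNCCAC (1.24%), TATAAA (13.6%) or DR1 (0.04%), a repeat of AGGTCA spaced by 1 base, each searched on both strands. A match in these letters is a description of the window and not a binding site, and a missing match says nothing about a factor.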

How the data were processed

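The authors deposited raw read counts per gene symbol, whole numbers that are not normalized, for 23412 genes in 6 libraries. The submitters' processing notes name STAR and build mm10, and no counting tool, annotation or strand setting is given in the sources used here. Columns were mapped to groups by name, without a replicate number, since their numbers and the labels' triplicate numbers do not match. No pair of libraries within a group was alike within sampling noise (chi-square per degree of freedom 31.0 to 61.3).

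Genes were filtered with filterByExpr and scaled by TMM, and tested with edgeR 4.0.16 in R 4.3.3 (glmQLFit with robust estimation and glmQLFTest, with no covariate). Benjamini-Hochberg adjustment ran over 12626 genes, with a threshold of 0.05 on two-sided p-values. SEs were obtained by dividing the log2 fold change by the root of its F statistic. For profiles, log2 CPM used a prior count of 2. Positions, exon lengths, overlaps and neighbours come from GENCODE M21 (GRCm38, the assembly of mm10), where 15829 of 16949 expressed symbols matched 1 gene. Relatives, partners, target and marker lists held 226 genes, 7 under an older symbol; 1, Ly6g, was not matched. Named genes were the members, Txnip, called relatives and partners, the closest relatives, up to 4 called genes per target list and up to 3 per cell type list by smallest p, the nearest tested neighbour on each side and the 3 closest profiles; other genes of the lists were named for their role or as values at 0. The members and lists were chosen with earlier results of these data known. One neighbouring gene is not reported here by name. The procedure was tested on simulated counts. Depths of 20888991 to 27007182 counts limit the precision of low genes, and floors of 3 counts cover counting error only. Alternatives were other scalings and filters, DESeq2 1.42.0, limma-voom (limma 3.58.1), removal of the 10 most abundant genes and leaving out each library.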

Additional observations from a re-analysis of the deposited data

How the results depend on the processing

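No paired analysis was possible because the columns of the count table carry numbers that match no triplicate number of the labels. The direction of all 7 members held in all alternatives, which follows from how they were chosen. Their count past the threshold was 7 in each scaling, filter and test except 6 without the low-count filter, where Agap2 missed it. With a library left out, that count was 3 to 7. These member counts describe libraries that also chose the members, and grade none of them. Of all genes tested, 1.27% (without Lira162) to 5.42% (without Lira164) were called higher and 1.82% to 6.27% lower with a library left out. Library totals as the scaling made 57.2% of the calls higher, against 46.5% with TMM. With a library left out, relatives and partners had 1 to 3 higher and 0 to 3 lower, PPAR-alpha targets 7 to 15 higher, p53 targets 1 to 2 higher and 0 to 1 lower, NRF2 targets 1 to 4 higher and 0 to 1 lower, and cell type markers 0 to 4 higher and 1 to 2 lower. Of relatives and partners, 0 were lower with library totals and 1 without the low-count filter. Of p53 targets, 2 were higher without the filter and 2 with DESeq2, which called 1 lower. NRF2 targets had 2 higher with library totals, 2 without the filter, 3 with DESeq2 and 2 with limma-voom, and 0 lower at a mean of at least 5 CPM, 2 with DESeq2 and 0 with limma-voom. DESeq2 called 2 markers lower. The cause of these shifts was not tested. With 3 libraries per group, low genes such as Agap2 after PBS limit what can be called.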
